A study of Mus musculus with 2 samples.

Results

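The Ly6 genes encode small proteins that hold a characteristic three-fingered fold and are tethered to the outer cell membrane by a GPI anchor, a lipid tail. Several of them define immune cells in mice: antibodies to Ly6C and Ly6G separate monocytes from neutrophils, Ly6A is the stem cell antigen Sca-1, and Ly6D marks early B lineage and plasmacytoid cells. Some members, Ly6a and Ly6e among them, are known targets of interferon. The rows of 7 genes, Ly6a, Ly6c1, Ly6c2, Ly6d, Ly6e, Ly6g and Ly6i, were taken by symbol from the 32285 genes of the matrices, and all 7 were present in both libraries.

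The libraries are droplet-based 3′ single-cell RNA profiles (10x Genomics) of mononuclear cells that were taken from the central nervous system on a Percoll gradient and sorted for MHC class II and CD11c. All mice were C57BL/6 and had EAE, experimental autoimmune encephalomyelitis, in which T cells attack myelin as in multiple sclerosis. Mice of 2 genotypes received MOG peptide, a myelin antigen, with complete Freund's adjuvant (CFA) and pertussis toxin (PTX), and cells were collected on day 15. The WT group gave 1 library and the Stat4fl/flCD11cCre group gave 1 library, each from pooled animals whose number is not given in the sources used here. In the second group a Cre recombinase under the CD11c promoter deletes floxed Stat4, the transcription factor downstream of IL-12 and IL-23, in CD11c-positive cells. No group without EAE and no Cre-only group was analysed here. With 1 pool per genotype there is no replicate check: genotype, pool and library cannot be told apart, and every interval below covers counting error only.

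The matrices held 13820 barcodes with 122975017 gene UMIs (unique molecular identifiers, counted transcripts) in WT and 12534 barcodes with 120221740 gene UMIs in Stat4fl/flCD11cCre. Barcodes with at least 500 genes, at least 1000 UMIs and under 10% mitochondrial UMIs were kept as cells, 13298 in WT with a median of 6440.5 UMIs and 12305 in Stat4fl/flCD11cCre with a median of 6878. Of these barcodes, 42 occurred in both libraries. Cell types were set by gates of marker genes, none of them a Ly6 gene, and 12 gates held at least 50 cells in each library. Despite the sort, microglia made up 22.9% and 39.4% of cells (WT and Stat4fl/flCD11cCre, the order used throughout), T cells 16.3% and 8.06%, neutrophils 3.76% and 6.50%, and epithelial cells of the choroid plexus 0.970% and 0.658%. Cells passing more than 1 gate, 27.1% and 22.7%, were left out. Stat4 itself was counted at 99.0 and 103 CPM (UMIs per 1000000 gene UMIs of a gate) in conventional type 2 dendritic cells (cDC2) and at 43.4 and 51.3 CPM in plasmacytoid dendritic cells (pDC). It was lower in Stat4fl/flCD11cCre in microglia, at 4.17 (95% Poisson interval 3.26 to 5.25) and 1.44 CPM (1.04 to 1.94), and was counted in Arg1-positive macrophages at 6.20 and 2.97 CPM and in Nos2-positive macrophages with 14 and 1 UMIs. The labels do not say which exons are floxed, so 3′ counts outside the deleted part do not check the deletion.

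All 7 genes lie within 397 kb of mouse chromosome 15 (mm10, GENCODE M21), from position 74762056 at the start of Ly6d to 75159126 at the end of Ly6g. In order along the chromosome they are Ly6d (74762056 to 74763620, minus strand), Ly6e (74955051 to 74959905, plus), Ly6i (74979534 to 74983430, minus), Ly6a (74994877 to 74998031, minus), Ly6c1 (75044018 to 75048830, minus), Ly6c2 (75108158 to 75111970, minus) and Ly6g (75155240 to 75159126, plus). Each is protein-coding. The coding sequences of Ly6c1 and Ly6c2 were the closest pair, with 387 of 396 bases identical (97.7%), followed by Ly6a and Ly6i with 350 of 405 (86.4%). Such copies can split or lose reads when counts are assigned. Of the 410 stretches of 91 bases, the length of the reads, in the last 500 bases of the Ly6c1 and Ly6c2 transcripts, 34 (8.29%) were shared between the 2 genes, and for the other 5 members none was shared with another gene. Counts of Ly6c1 and Ly6c2 therefore rest on reads that mostly differ between them at the 3′ end, and both remain uncertain where reads come from the coding part.

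The near-identical pair differed more upstream than in its coding sequence. The 250 bases before the RefSeq start (GRCm38.p6) are shown for this pair, whose levels below are far apart, and for Ly6g, which was counted almost solely in neutrophils. These 3 members matched the RefSeq promoter table, and each is written in its own direction of transcription. Capitals mark GAGGAAGT, an ETS motif of the type bound by PU.1, searched on both strands.
Ly6c1: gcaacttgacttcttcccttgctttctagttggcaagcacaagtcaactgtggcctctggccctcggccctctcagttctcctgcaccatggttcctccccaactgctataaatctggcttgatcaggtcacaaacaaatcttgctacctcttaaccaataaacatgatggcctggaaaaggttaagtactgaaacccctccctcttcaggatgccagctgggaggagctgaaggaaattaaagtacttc
Ly6c2: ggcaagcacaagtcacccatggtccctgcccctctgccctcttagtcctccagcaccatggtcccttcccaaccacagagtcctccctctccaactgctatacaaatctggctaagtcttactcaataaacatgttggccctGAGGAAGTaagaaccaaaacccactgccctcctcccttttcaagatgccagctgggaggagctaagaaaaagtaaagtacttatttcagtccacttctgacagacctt
Ly6g: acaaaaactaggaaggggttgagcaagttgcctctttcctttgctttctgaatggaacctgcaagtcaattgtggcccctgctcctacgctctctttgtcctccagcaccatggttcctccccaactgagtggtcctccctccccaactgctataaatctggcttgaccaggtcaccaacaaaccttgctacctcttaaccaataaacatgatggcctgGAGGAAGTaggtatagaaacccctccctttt

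The windows lie at 75048838 to 75049087 (Ly6c1, minus), 75111972 to 75112221 (Ly6c2, minus) and 75155011 to 75155260 (Ly6g, plus). The RefSeq start used for Ly6g lies just inside the GENCODE gene given above, so the end of its window overlaps the first bases of that gene model, and motif positions count from the RefSeq start. The motif GAGGAAGT occurred once in Ly6c2, 108 bases before the start (-108), and once in Ly6g (-31), and these letters were not in the Ly6c1 window. Of 27025 promoters, 2.44% held it. In both windows the motif follows a similar stretch that begins with aataaacatg, so the matches are not read as independent of each other. The TATA motif TATAAA was found in Ly6c1 (-143) and Ly6g (-99) and in 3504 of the 27025 promoters, and TTGCNNAA, a form of the C/EBP motif, in Ly6g (-232) and in 9.55%. Neither TTCNNNGAA, the GAS motif of STAT factors (7.18% of promoters), nor the core of the interferon response element, GAAA followed after any 2 bases by GAAA (3.04%), was found in any of the 3 windows. Over the aligned parts upstream, Ly6c1 and Ly6g shared 83.5% of bases (81.6% in the coding sequence), Ly6c2 and Ly6g 78.0%, and Ly6c1 and Ly6c2 75.9%. A match is a description of letters and not a measured binding site.

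The members fell into distinct patterns across cell types. Ly6d was concentrated in pDC and Ly6g in neutrophils, Ly6i was found in macrophages, monocytes and neutrophils, Ly6c2 and Ly6a were found in several lineages, Ly6e in every immune cell type gated, and Ly6c1 at close to no count in any of them. The plot of levels by cell type shows both libraries. Levels are in CPM within a gate, and they are compared between cell types for 1 gene, not between genes.

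**Figure D1:**
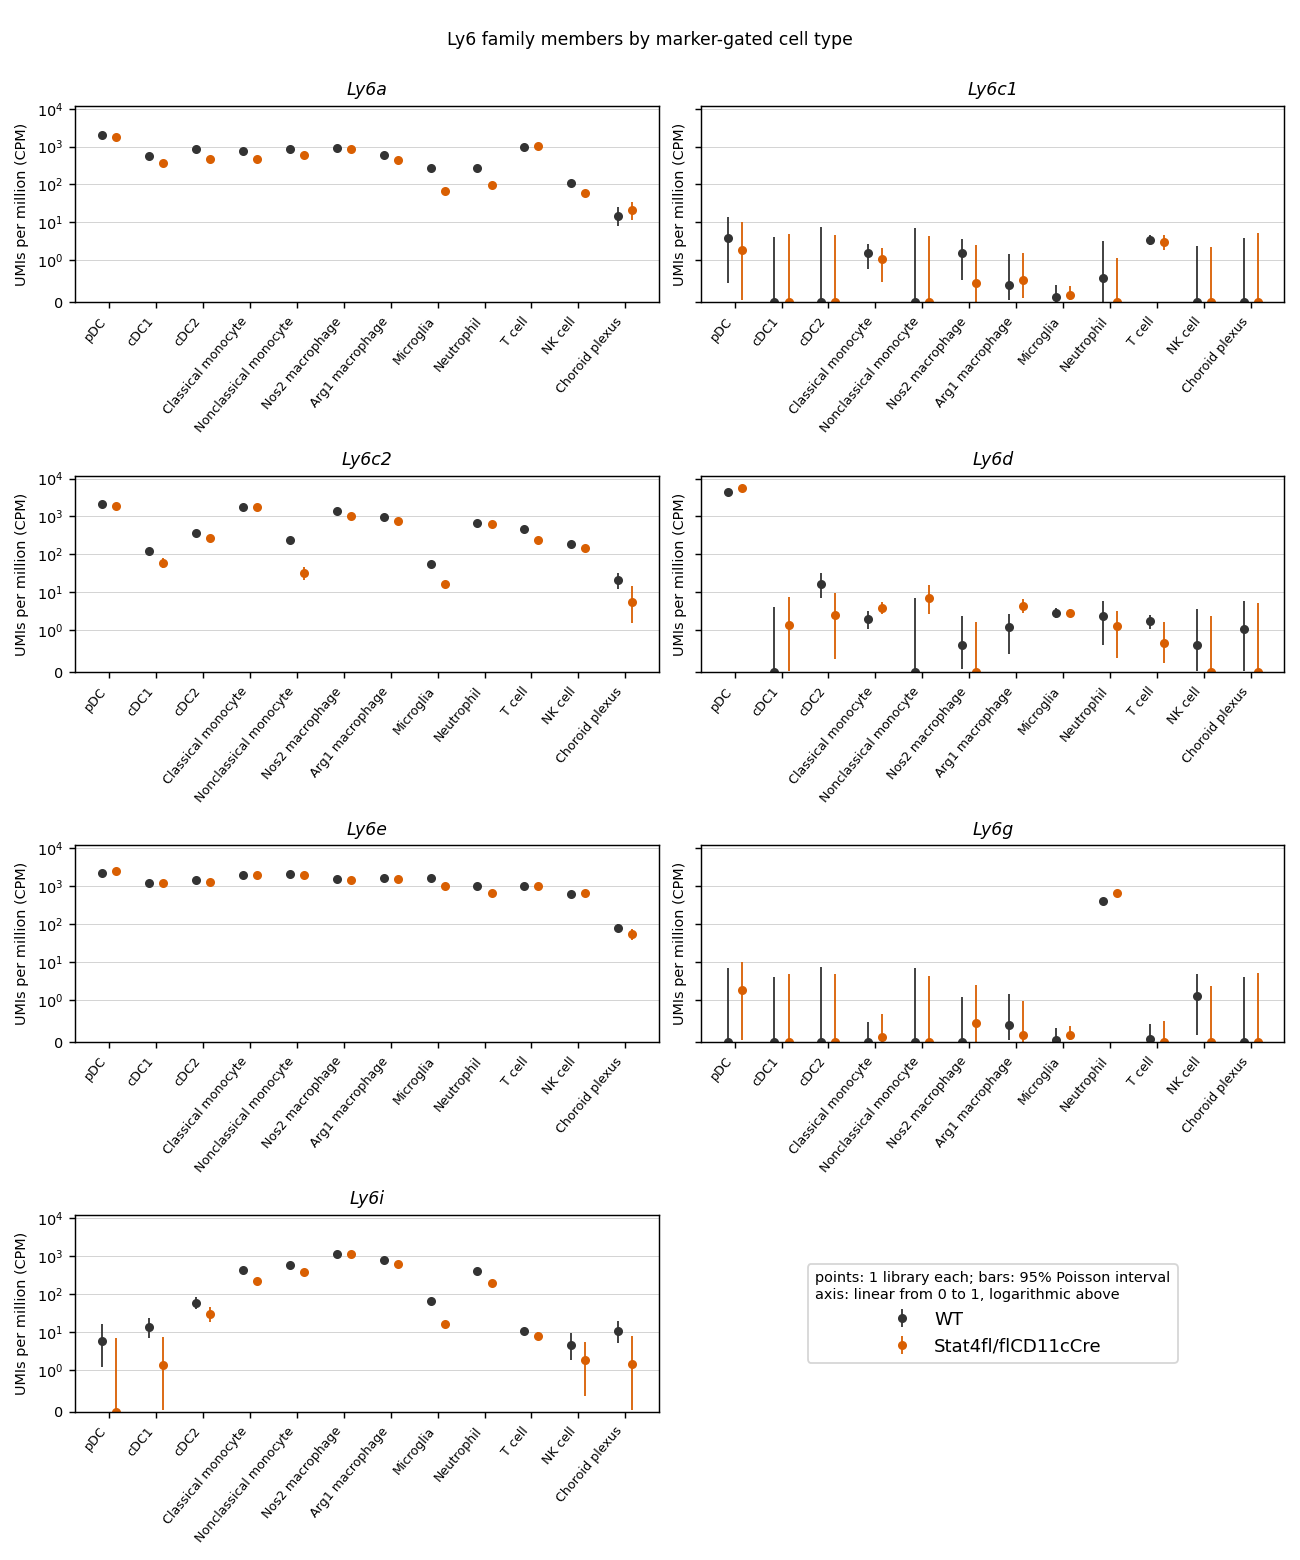
Level of each Ly6 member (CPM, linear from 0 to 1 and logarithmic above) in 12 marker-gated cell types, as 1 point per library with its 95% Poisson interval, WT in dark grey and Stat4fl/flCD11cCre in orange. Ly6d stands at 4548 and 5771 in pDC and at 16.2 or less in the other cell types, Ly6g at 416 and 655 in neutrophils and at 1.83 or less elsewhere, and Ly6e at 642 or more in every cell type but choroid plexus.

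Choroid plexus cells, which are epithelial, were taken as the background level. Whether their counts are stray RNA or their own transcripts was not tested. They held Ly6a at 15.1 and 21.2 CPM, Ly6c2 at 20.5 and 5.65, Ly6e at 80.8 and 53.7, Ly6i at 10.8 and 1.41, and 1 UMI of Ly6d in WT only, with median depths of 7365 and 8670 UMIs per cell. After thinning to 2500 UMIs per cell, a UMI of Ly6a was found in 4.88% and 1.25% of choroid plexus cells and one of Ly6e in 17.1% of 123 and in 6 of 80. Levels of a member near these values are read as background.

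Ly6d, a marker of B lineage and plasmacytoid precursors, was counted at 4548 CPM (95% Poisson interval 4369 to 4734) in WT pDC and 5771 CPM (5572 to 5977) in Stat4fl/flCD11cCre pDC. A UMI of it was found in 92.9% (exact Clopper-Pearson interval 85.3 to 97.4) of 85 and 93.5% (85.5 to 97.9) of 77 pDC thinned to 2500 UMIs. The level was 1.27-fold higher in Stat4fl/flCD11cCre (log2 ratio 0.34, interval 0.27 to 0.42), which is within the 1.5-fold used here to call a difference. No other compared cell type passed 16.2 CPM. B cells, with 71 and 39 cells too few in the second library for comparison, held it at 1749 and 778 CPM. After thinning, 44 of 47 and 20 of 35 B cells had a UMI of Ly6d.

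Ly6g, the antigen of neutrophil-specific antibodies, was counted at 416 CPM (386 to 447) and 655 CPM (627 to 684) in neutrophils and at no more than 5 UMIs in any other compared cell type. Within neutrophils, the cells with transcripts of at least 2 of the secondary granule genes Ltf, Ngp and Camp, which are made in immature neutrophils, had the higher level, 747 and 1232 CPM. Those with none of the 3 held 143 and 247 CPM. The summed level of Ly6g was thus 1.58-fold higher in Stat4fl/flCD11cCre neutrophils (log2 ratio 0.66, interval 0.53 to 0.78), 1.65-fold higher in those with granule genes and 1.72-fold higher in those without. It was the sole called increase among the members in the 12 cell types. In neutrophils 2.88% of genes passed the same limit upwards, in the subset with granule genes 6.19% and in that without 5.56%. The call is lost with cells thinned to 2500 UMIs (log2 ratio 0.23), which leaves out 277 of 500 and 300 of 800 neutrophils. A UMI of Ly6g was found in 49.3% and 45.8% of the thinned neutrophils and in 27.0% and 37.4% of all, so the thinned share does not follow the CPM and no order is read from it. The call is also lost with a stricter cell filter and with 1 more marker required.

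Ly6c1 and Ly6c2 encode the near-identical Ly6C proteins, Ly6c1 known from endothelium and Ly6c2 from monocytes. Ly6c1 was counted at no more than 3.77 CPM in any compared cell type, with 45 and 22 UMIs in T cells, where its levels of 3.46 and 3.04 CPM did not differ beyond counting error (log2 ratio -0.19, interval -0.99 to 0.58). The 2 endothelial cells, both in the Stat4fl/flCD11cCre library, had 17 UMIs of Ly6c1 and 0 of Ly6c2. With cells of more than 1 gate kept there were 5 endothelial cells, with Ly6c1 at 706 and Ly6c2 at 488 CPM, so no contrast is drawn from so few cells. The order of Ly6c2 was pDC (2135 and 1893 CPM), classical monocytes (1763 and 1800), Nos2-positive macrophages (1432 and 1048), Arg1-positive macrophages (944 and 749) and neutrophils (688 and 650). Each of these 5 cell types was above the next in both libraries. T cells (468 and 241) and cDC2 (370 and 271) followed and overlapped across libraries, and microglia stood lowest of the immune cell types at 54.0 and 16.1 CPM. With cells of more than 1 gate kept, pDC stood at 1752 and 1753 CPM and classical monocytes at 1644 and 1807. The order of these 2 cell types then differed between the libraries.

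In T cells Ly6c2 was mostly a transcript of CD8 cells. CD8 T cells held 1577 CPM (1531 to 1624) and 1073 CPM (1012 to 1137), and 74.1% of 463 and 58.5% of 159 thinned CD8 cells had a UMI of Ly6c2. Ly6c2 stood at 147 and 62.1 CPM in CD4 T cells with Ifng, at 117 and 79.3 in CD4 T cells with none of Ifng, Il17a and Foxp3, and at 138 and 281 in gamma-delta T cells. CD4 T cells with Foxp3, the factor of regulatory T cells, held 35.6 and 84.7 CPM, from 28 and 42 UMIs. CD8 cells thus had the highest level in both libraries. Ly6a did not follow this division: its level in the same subsets ranged from 746 to 1447 CPM in WT and from 639 to 1486 in Stat4fl/flCD11cCre, with gamma-delta T cells highest in both.

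**Figure D2:**
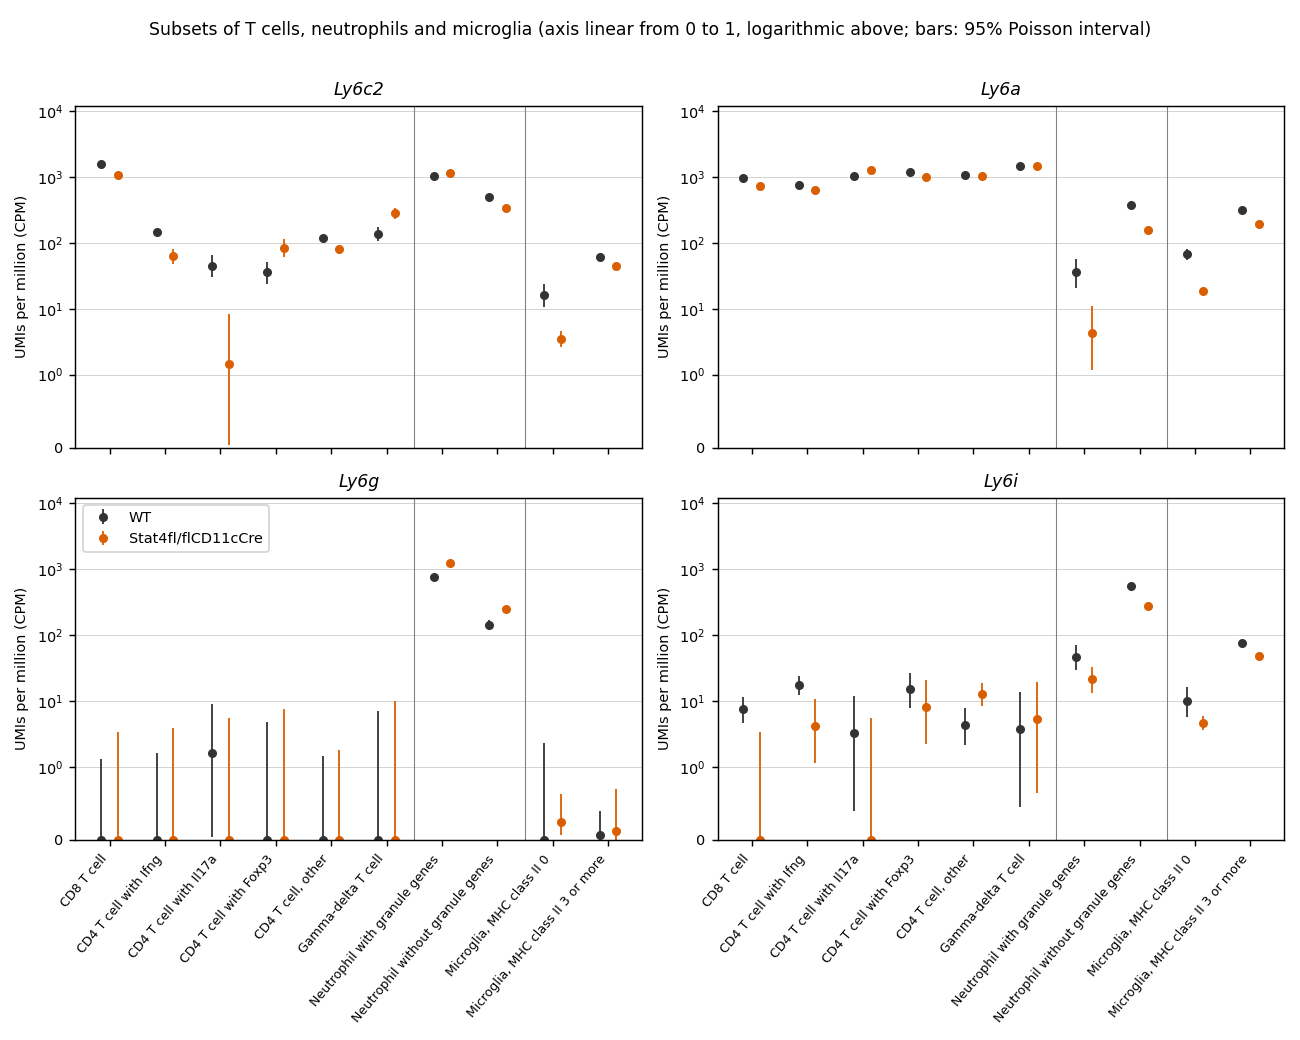
Levels of Ly6c2, Ly6a, Ly6g and Ly6i (CPM, linear from 0 to 1 and logarithmic above) in subsets of T cells, neutrophils and microglia, 1 point per library with its 95% Poisson interval. Ly6c2 is highest in CD8 T cells among T cells (1577 and 1073), and Ly6g and Ly6i take opposite sides of the neutrophil split: Ly6g is 747 and 1232 with granule genes and Ly6i is 549 and 278 without them.

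Ly6i, a close relative of Ly6a, was highest in macrophages that carried Nos2, the nitric oxide synthase of inflammatory macrophages, at 1129 CPM (1092 to 1167) and 1109 CPM (1065 to 1154). Arg1-positive macrophages (781 and 618 CPM) were next in both libraries, then nonclassical (584 and 375) and classical monocytes (442 and 218), which overlapped with each other across libraries. Neutrophils held 410 and 196 CPM. In pDC, where Ly6a and Ly6c2 peaked, Ly6i had 3 and 0 UMIs, and in T cells it stood at 10.8 and 7.88 CPM, near the choroid plexus level. Ly6c2 and Ly6i thus stood in opposite order between classical monocytes and Nos2-positive macrophages: Ly6c2 was higher in the monocytes and Ly6i in the macrophages, in both libraries.

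The 2 genes were also spread differently over neutrophils. Ly6i stood at 46.7 and 21.3 CPM in neutrophils with granule genes and at 549 and 278 CPM in those without, the opposite of Ly6g. Ly6c2 followed Ly6g, with 1036 and 1151 CPM with granule genes and 489 and 333 without, and Ly6e followed Ly6i, with 153 and 101 CPM against 1435 and 1022. Across thinned neutrophils (223 and 500 cells), Spearman's rho between Ly6g and Ly6c2 was 0.351 and 0.478, between Ly6g and Ly6e -0.447 and -0.373, and between Ly6g and Ly6i -0.321 and -0.333. These are descriptions across cells of 1 library, which share their depth after thinning, and each cell holds few UMIs. In classical monocytes rho between Ly6a and Ly6i was 0.308 and 0.335, and between Ly6c2 and Ly6i 0.0722 and 0.00722.

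Ly6a was highest in pDC, at 2040 CPM (1921 to 2166) and 1768 CPM (1658 to 1883), and next in T cells, at 996 and 1039 CPM, both steps being present in both libraries. Nos2-positive macrophages (909 and 869), nonclassical monocytes (888 and 588), cDC2 (861 and 473), classical monocytes (764 and 472) and Arg1-positive macrophages (613 and 446) followed, without each being above the next in both libraries. Microglia (272 and 66.9) and neutrophils (271 and 99.3) changed places between the libraries. NK cells (109 and 57.9) held the least of the immune cell types. Ly6e, an interferon-induced member found on many cell types, was counted in every immune gate. It ran from 2304 and 2477 CPM in pDC, through 2059 and 2041 in nonclassical and 1994 and 1969 in classical monocytes, to 642 and 666 in NK cells, and a UMI was found in 98.8% and 98.7% of thinned pDC.

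By a likeness of log2(CPM + 10) over the 12 cell types and 2 libraries (24 points, Pearson's r, 3932 genes with at least 100 CPM in some cell type), the 3 nearest genes were named for each member. They were Gltp (r 0.855), Plac8 (0.844) and Ly6e (0.836) for Ly6a. For Ly6c2 they were H3f3b (0.881), Ethe1 (0.860) and Gadd45b (0.829), for Ly6d Klk1 (0.992), Iglc3 (0.992) and Cdh5 (0.991), and for Ly6e H2-T23 (0.963), Tnfaip8l2 (0.938) and Etv6 (0.936). The list closed with Stfa2l1 (0.999), Cstdc5 (0.998) and Ceacam10 (0.998) for Ly6g and Dram1 (0.983), C3 (0.982) and Tgm2 (0.979) for Ly6i. Plac8, Klk1, Cdh5 and Stfa2l1 are themselves gate markers. Ly6c1 was below the minimum of 100 CPM, and the points share 2 libraries, so r is a description. Among the compared cell types Ly6d was counted almost only in pDC and Ly6g in neutrophils. Their r therefore rests mainly on the points of that cell type, and any gene high there alone comes near the top.

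Between genotypes, the members were lower in Stat4fl/flCD11cCre far more often than higher. Of 84 values of a member in a cell type, 46 had at least 50 UMIs over both libraries and at least 1 in each. Of those 46, 19 were at least 1.5-fold lower in Stat4fl/flCD11cCre, 1 was at least 1.5-fold higher (Ly6g in neutrophils) and 26 lay within 1.5-fold. The 19 include Ly6e in choroid plexus cells, a value read here as background. For 31 the interval of the ratio was wholly below 0 on the log2 scale and for 3 wholly above. The share of all genes with such intervals was not computed, so these interval counts are not read as a result about the members. Ly6a was lower in 7 of 11 cell types, Ly6i in 5 of 8, Ly6c2 in 4 of 11 and Ly6e in 3 of 12, choroid plexus cells among them. Ly6c1, Ly6d and Ly6g had no decrease in the 1, 2 and 1 cell types where they could be measured. Among the 12 cell types, the share of all genes at least 1.5-fold higher is given here for neutrophils only (2.88%). In the other cell types the direction therefore has no such share beside it. The median log2 ratio of all genes ran from -0.14 in neutrophils to 0.09 in microglia. The share of all measured genes that were at least 1.5-fold lower was 10.9% in microglia, 16.6% in neutrophils, 6.88% in nonclassical monocytes, 4.93% in classical monocytes, 4.88% in cDC1, 5.33% in cDC2, 2.58% in NK cells, 3.18% in T cells, 3.05% in Arg1-positive macrophages, 4.59% in Nos2-positive macrophages, 3.85% in pDC and 6.32% in choroid plexus cells.

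**Figure D3:**
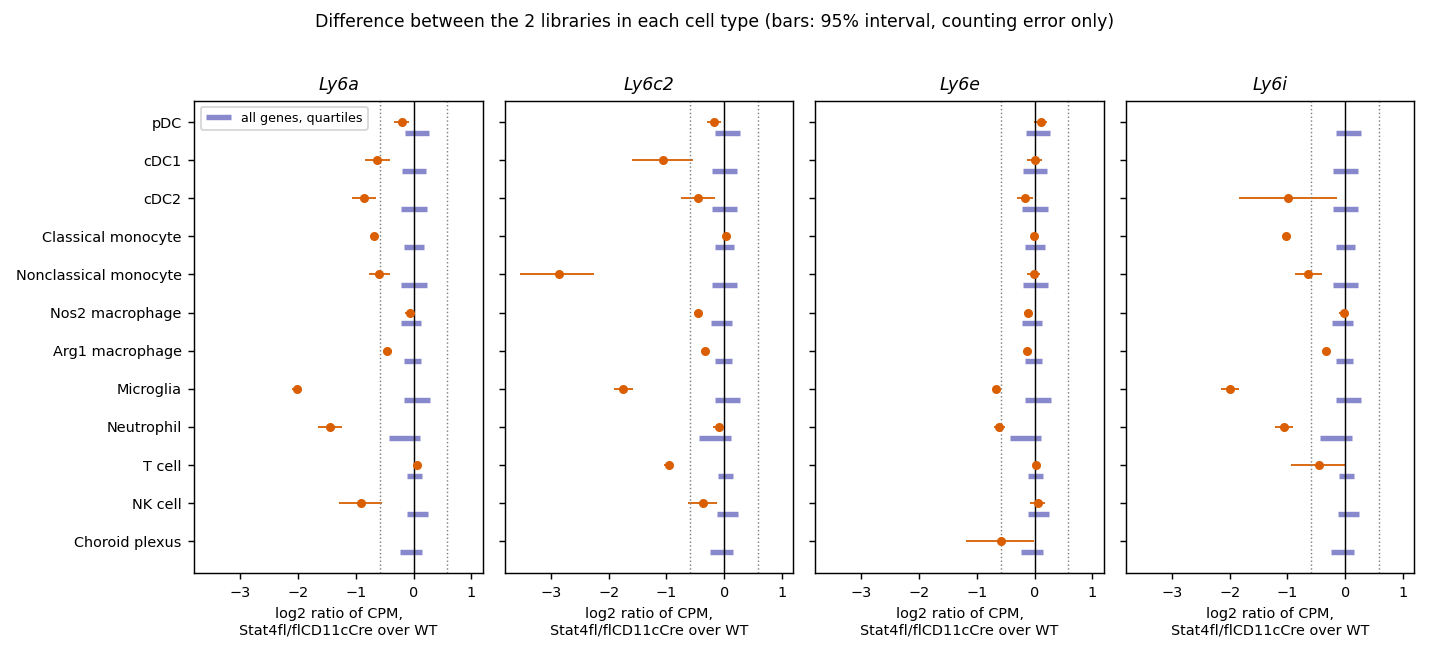
Log2 ratio of CPM, Stat4fl/flCD11cCre over WT, for the 4 broadly found members in each cell type with enough UMIs (orange points with 95% intervals), beside the quartiles of all measured genes (lilac bars). Dotted lines mark 1.5-fold; Ly6a, Ly6c2 and Ly6i lie near -2 in microglia, while in pDC and Nos2-positive macrophages the points stay within 1.5-fold.

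Microglia, the resident macrophages of the brain, showed the most members lower. Ly6a was counted at 272 CPM in WT and 66.9 in Stat4fl/flCD11cCre, 4.07-fold lower (log2 ratio -2.02, interval -2.10 to -1.95). Ly6i went from 63.5 to 15.9 CPM (-1.99, -2.15 to -1.84) and Ly6c2 from 54.0 to 16.1 (-1.75, -1.91 to -1.59). Ly6e was 1648 and 1035 CPM (-0.67, -0.70 to -0.65), also lower, and Ly6d at 2.90 and 2.85 CPM did not differ beyond counting error. In Stat4fl/flCD11cCre these last values of Ly6i and Ly6c2 were low, against 1.41 and 5.65 CPM in the choroid plexus cells of the same library and 10.8 and 20.5 in those of WT. With cells of more than 1 gate kept, Ly6c2 in microglia had a log2 ratio of -0.82, Ly6i -1.07, Ly6a -1.34 and Ly6e -0.56, the last within 1.5-fold. A UMI of Ly6a was found in 34.7% of 2754 WT microglia and 7.94% of 4636 Stat4fl/flCD11cCre microglia, and one of Ly6i in 7.30% and 1.45%, all thinned to 2500 UMIs. The 8 classical monocyte markers, all found in both, summed to 377 CPM in WT and 198 CPM in Stat4fl/flCD11cCre microglia, and the 8 microglial markers to 4367 and 7559. Their part in these differences was not tested.

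The make-up of microglia differed between the libraries: 2244 of 3050 cells in WT and 850 of 4847 in Stat4fl/flCD11cCre had at least 3 UMIs of the MHC class II genes H2-Aa, H2-Ab1 and H2-Eb1, and 424 and 3107 had none. Among those with at least 3, Ly6a was 313 and 191 CPM (log2 ratio -0.71, interval -0.80 to -0.63), Ly6i 75.5 and 47.9 (-0.66, -0.83 to -0.49), Ly6c2 61.8 and 44.1 (-0.49, -0.67 to -0.31) and Ly6e 1711 and 1417 (-0.27, -0.30 to -0.24). So 2 of 5 measured members were at least 1.5-fold lower there, against 4.38% of all genes, and the differences were smaller than over all microglia. Ly6d was 3.26 and 7.93 CPM there, the 1 of 5 counted as higher, against 2.23% of genes, from 46 and 64 UMIs. Its share of thinned cells with a UMI, 0.527% and 0.360%, does not follow the CPM, and no order is read from it. The split by MHC class II used unthinned UMIs. Median depth was 5062 and 7587 UMIs in cells with at least 3, and 3584.5 and 4695 in cells with none. Cells of a subset may thus differ in MHC class II level between libraries, which was not tested.

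Among microglia with no MHC class II UMI, Ly6a was 66.6 and 18.6 CPM (-1.84, -2.16 to -1.51) and Ly6e 1316 and 865 (-0.61, -0.67 to -0.54). Ly6c2 at 16.0 and 3.51 CPM was below the choroid plexus level of its own library, and Ly6i at 9.86 and 4.62 CPM rested on 16 and 75 UMIs. All 4 measured members were lower there, against 6.69% of genes, but of these 4 only Ly6e was far above the choroid plexus level in both libraries. When cells of more than 1 gate were kept, Ly6c2 in these cells reversed to a log2 ratio of 0.18, and Ly6d in the cells with MHC class II to -0.46.

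Monocytes differed by member. In classical monocytes Ly6c2 was 1763 and 1800 CPM (log2 ratio 0.03, interval -0.00 to 0.06) and Ly6e 1994 and 1969 (-0.02, -0.05 to 0.01), and neither differed beyond counting error. Ly6a was 764 and 472 CPM, 1.62-fold lower (-0.69, -0.75 to -0.63), and Ly6i 442 and 218 CPM, 2.03-fold lower (-1.02, -1.10 to -0.94). The share of thinned classical monocytes with a UMI was 53.6% and 36.3% for Ly6a, 42.0% and 25.3% for Ly6i and 80.5% and 79.3% for Ly6c2. Both decreases passed 1.5-fold under each of the 9 alternatives other than the fold of 2. The plot of UMIs per cell shows the same split.

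**Figure D4:**
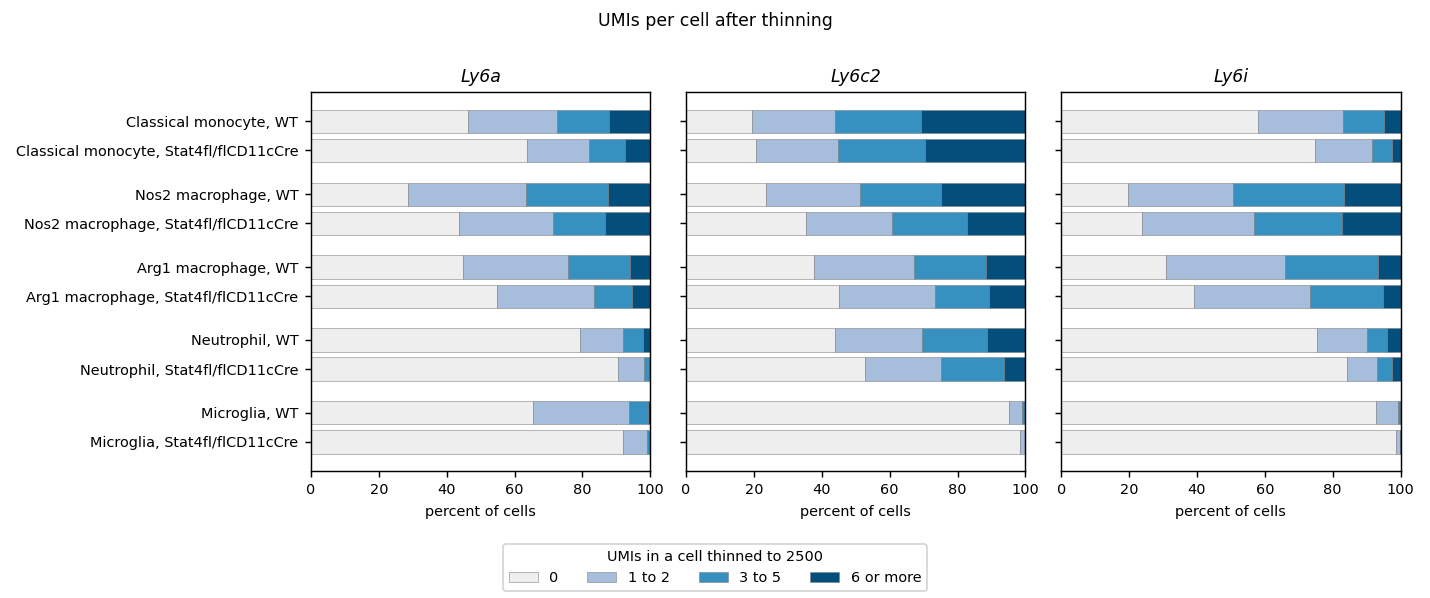
Percent of cells with 0, 1 to 2, 3 to 5 and 6 or more UMIs of Ly6a, Ly6c2 and Ly6i after each cell was thinned to 2500 UMIs, for 5 myeloid cell types in each library. In classical monocytes the bars of Ly6c2 nearly coincide between libraries (0 UMIs in 19.5% and 20.7%), while cells with 0 UMIs of Ly6i are 58.0% in WT and 74.7% in Stat4fl/flCD11cCre.

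Nonclassical monocytes, the patrolling cells that carry little Ly6C, held Ly6c2 at 234 CPM (194 to 280) and 32.0 CPM (21.1 to 46.6) from 121 and 27 UMIs, 7.31-fold lower in Stat4fl/flCD11cCre (log2 ratio -2.87, interval -3.53 to -2.26). With cells of more than 1 gate kept, this ratio was -1.31. Ly6a was 888 and 588 CPM there (-0.59, -0.78 to -0.41) and Ly6i 584 and 375 (-0.64, -0.87 to -0.41), both just past 1.5-fold and past it under 5 and 7 of 9 alternatives, and Ly6e did not differ beyond counting error (2059 and 2041). Of the 8 classical monocyte markers, 8 were found in WT and 5 in Stat4fl/flCD11cCre nonclassical monocytes, summing to 4886 and 3994 CPM; their part in the Ly6c2 value was not tested. The cells numbered 97 and 147.

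Macrophages differed less. In Nos2-positive macrophages (342 and 183 cells) Ly6a was 909 and 869 CPM and Ly6i 1129 and 1109, neither beyond counting error, with Ly6c2 at 1432 and 1048 (log2 ratio -0.45, interval -0.52 to -0.38). The share of thinned cells with a UMI of Ly6a was 71.4% (66.3 to 76.2) of 336 and 56.4% (48.8 to 63.7) of 181. For Ly6i it was 80.4% and 76.2%. These intervals take the cells of a pool as independent draws and do not cover the spread between pools. The Ly6a share does not follow its CPM, and no order is read from it. In Arg1-positive macrophages Ly6a (613 and 446 CPM, -0.46), Ly6i (781 and 618, -0.34), Ly6c2 (944 and 749, -0.33) and Ly6e (1661 and 1520, -0.13) all had intervals below 0 and none passed 1.5-fold. The 2 macrophage gates had 0 of 8 measured member values called.

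In neutrophils Ly6a went from 271 to 99.3 CPM (log2 ratio -1.45, interval -1.66 to -1.24), Ly6i from 410 to 196 (-1.06, -1.22 to -0.91) and Ly6e from 1002 to 655 (-0.61, -0.71 to -0.52). Ly6c2 at 688 and 650 did not differ beyond counting error. After thinning, the ratios of Ly6i (-0.57) and Ly6e (-0.45) were within 1.5-fold. So 3 of 5 measured members were lower, among 16.6% of all genes. Within neutrophils without granule genes 2 of 5 were lower, Ly6a (370 and 155 CPM) and Ly6i (549 and 278), against 12.7% of genes. In those with granule genes 1 of 3 was, Ly6e (153 and 101 CPM), against 13.2%. The median log2 ratio of all genes in neutrophils was -0.14. The 10 neutrophil markers summed to 33800 and 46693 CPM and the 8 monocyte-derived markers to 1265 and 877, and their part was not tested.

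Dendritic cells split by type. In pDC Ly6a (2040 and 1768 CPM, log2 ratio -0.21), Ly6c2 (2135 and 1893, -0.17), Ly6d and Ly6e all lay within 1.5-fold. In cDC1 (84 and 53 cells) Ly6a was 556 and 359 CPM (-0.63, -0.85 to -0.41) and Ly6c2 122 and 58.8 (-1.06, -1.59 to -0.54), and Ly6e was 1204 and 1207. The Ly6a difference in cDC1 was within 1.5-fold after thinning (-0.56). In cDC2 (69 and 74 cells) Ly6a was 861 and 473 CPM (-0.86, -1.07 to -0.66) and Ly6i 58.6 and 29.6 (-0.98, -1.84 to -0.14), the latter from 29 and 23 UMIs. Ly6c2 in cDC2 was 370 and 271 CPM (-0.45, -0.74 to -0.16), within 1.5-fold. The 8 classical monocyte markers summed to 3407 and 2489 CPM in cDC2 and to 1866 and 1580 in cDC1, with 8 and 6 of them found in cDC2 and 6 and 6 in cDC1; their part was not tested.

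Lymphocytes showed 1 member lower in each of 2 gates. In T cells Ly6c2 was 468 and 241 CPM, 1.94-fold lower (log2 ratio -0.96, interval -1.03 to -0.88), while Ly6a (996 and 1039) and Ly6e (1026 and 1048) lay within 1.5-fold, with log2 ratios of 0.06 and 0.03. CD8 T cells were 490 of 2164 WT T cells and 164 of 992 in Stat4fl/flCD11cCre. Within CD8 cells Ly6c2 was 1.47-fold lower (-0.56, -0.65 to -0.46), within CD4 T cells with Ifng 2.37-fold lower (-1.24, -1.67 to -0.84; 6.34% of genes there were lower), and within the other CD4 T cells 1.48-fold lower. The direction was opposite in CD4 T cells with Foxp3, 2.38-fold higher (1.25, 0.53 to 1.99; 4.17% of genes were higher), and in gamma-delta T cells, 2.03-fold higher (1.02, 0.58 to 1.47; 4.54% of genes). A UMI of Ly6c2 was found in 22.1% of 86 and 21.3% of 61 gamma-delta T cells and in 12.1% of 91 and 19.6% of 51 cells with Foxp3, all without thinning, so in gamma-delta T cells the CPM differed while the shares were close. A few cells held many of the UMIs: after thinning, 4 of 49 Stat4fl/flCD11cCre cells with Foxp3 had a UMI of Ly6c2 and 1 cell had 6, and 3 of 60 gamma-delta T cells had 6 or more, up to 9. In CD4 T cells with Il17a, Ly6c2 had 28 and 1 UMIs (45.1 and 1.47 CPM), too few for a call. In NK cells Ly6a was 109 and 57.9 CPM (-0.92, -1.30 to -0.54) and Ly6c2 188 and 145 (-0.37, -0.63 to -0.12). Choroid plexus cells had Ly6e, their 1 measured member, at 80.8 and 53.7 CPM (-0.59, -1.19 to -0.01), a difference within 1.5-fold once the highest doublet scores were removed (-0.29).

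Related gene lists gave a frame for these counts. Of 25 listed genes of interferon signalling or response, 24 were measured in microglia and 16 were at least 1.5-fold lower (median log2 ratio -1.11, all genes 0.09), while the 5 measured Ly6 members had a median of -1.75. The named listed genes, by most UMIs, were Ifngr1 (423 and 598 CPM), Irf8 (441 and 401), Bst2 (548 and 290) and Ifnar2 (317 and 330), so of these 4 the receptor chains were not lower. In neutrophils 14 of 24 listed genes were lower (median -0.71, all genes -0.14), in classical monocytes 6 of 24 (-0.31, all genes 0.01), in T cells 1 of 24 (0.01, all genes 0.02) and in Nos2-positive macrophages 0 of 24 (-0.15, all genes -0.04). Of all genes, 10.9% were lower in microglia, 16.6% in neutrophils, 4.93% in classical monocytes, 3.18% in T cells and 4.59% in Nos2-positive macrophages. CD4 T cells with Ifng had 6 of 20 listed genes lower (median -0.13, all genes -0.03), against 6.34% of all genes. For the other T cell subsets that share is not given here, so only medians are. The median was -0.32 in CD8 T cells (all genes 0.05), 0.18 in gamma-delta T cells (-0.02) and 0.23 in CD4 T cells with Il17a (-0.03). In CD4 T cells with Foxp3 it was 0.18 (all genes -0.03) and in the other CD4 T cells 0.10 (0.02). In classical monocytes Cxcl9 was 764 and 316 CPM, Gbp2 533 and 320 and Bst2 444 and 439. No test of these lists across samples was possible. Genes that build the GPI anchor, 29 listed, had 0 of 29 measured lower in microglia (median 0.14), against 10.9% of all genes. In classical monocytes 0 of 24 were lower (0.05), against 4.93%. In each of these gates 1 was higher, and the share of all genes higher there is not given here. Among the same genes 2 of 14 were lower in neutrophils (median -0.17), against 16.6% of all genes, and 2 of 15 in NK cells, against 2.58%. In nonclassical monocytes 1 of 8 was lower, against 6.88%, and in cDC1 1 of 7, against 4.88%. No difference of this list from all genes is read from such small counts.

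Of 32 listed relatives in the Ly6/uPAR family, 12 had at least 50 UMIs over both libraries. Plaur, the urokinase receptor, led with 31696 UMIs and was highest in neutrophils at 351 and 424 CPM. The next by UMIs were Ly6g5b with 1195 (42.1 and 39.0 CPM in T cells), Lypd6 with 854 (5.21 and 14.0 CPM in microglia) and Ly6k with 741 (33.9 and 34.8 CPM in pDC). Cd59a, an inhibitor of complement named here after its value was seen, was highest in choroid plexus cells at 181 and 189 CPM.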

How the data were processed

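Single-cell 3′ RNA was counted by the authors as raw UMI counts per gene and barcode with Cell Ranger 7.0.0, as the file headers state. The genome build mm10 and, with no role given, bcl2fastq, STAR, Seurat and R 4.3.0 come from the submitters' processing notes. Annotation release, intron counting and doublet removal were not given in the sources used here. Counts of 5 antibody tags in the matrices were left out of gene totals. From the deposited counts, cells were filtered and gated by markers with at least 1 UMI (3 markers for most gates, 4 for classical monocytes and mature DC), and UMIs were summed per library and gate. CPM carry exact Poisson intervals, ratios exact conditional binomial intervals and shares exact Clopper-Pearson intervals, all at 95%. No test across samples was possible with 1 library per genotype, and no p-value is given. A difference was called at 1.5-fold among genes with 50 or more UMIs over both libraries and 1 or more in each. Shares and UMIs per cell were computed after thinning cells to 2500 UMIs and leaving out shallower ones. No doublet caller entered the main values; Scrublet (scanpy 1.11.5) was run as an alternative.

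All 7 members are named; likeness and list genes follow the rules given with them, up to 4 per list by most UMIs, with 1 such gene not reported here. The members, gates and lists were chosen with earlier results of these data known, and the sequence motifs with the promoters in view. Coding sequences are the longest reading frame shared by most coding transcripts of a member in GENCODE M21, aligned with biopython 1.88; motif shares are over RefSeq promoters of GRCm38.p6. The ratio step was run on simulated counts with Poisson error only, the error its intervals assume, so their coverage was fixed in advance. Of 9691 classical monocyte genes, 95.8% of intervals held the true ratio where no change was made. Of unchanged genes 1.42% passed 1.5-fold, and the direction was right for 100% of 1.5-fold changes. For 4010 genes in cDC1, 5.00% of unchanged genes passed 1.5-fold. Spread between cells or libraries was not simulated, so these values do not check the intervals for real cells. Real counts can be more spread than Poisson counts: in thinned WT T cells Ly6c2 had a mean of 1.34 UMIs and a standard deviation of 3.20. For Ly6d in thinned WT pDC these were 12.6 and 10.8. Alternatives varied gates, doublets, filters, scaling, depth, weights and fold; 2 were added after the data were seen.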

Additional observations from a re-analysis of the deposited data

Results flagged for a closer look

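Ly6c2 differed between genotypes in opposite directions among cell types, and the difference between the directions was not tested. It was higher in Stat4fl/flCD11cCre than in WT in CD4 T cells with Foxp3 (35.6 and 84.7 CPM, log2 ratio 1.25, interval 0.53 to 1.99) and in gamma-delta T cells (138 and 281 CPM, log2 ratio 1.02, interval 0.58 to 1.47). In CD4 T cells with Ifng (-1.24), cDC1 (-1.06), nonclassical monocytes (-2.87) and microglia (-1.75) it was lower, with intervals below 0. The higher values rest on 28 and 42 UMIs in 91 and 51 cells with Foxp3, and on 74 and 105 UMIs in 86 and 61 gamma-delta T cells. A few cells carried much of them: in Stat4fl/flCD11cCre, after thinning to 2500 UMIs, 1 of 49 cells with Foxp3 had 6 UMIs of Ly6c2 and 3 of 60 gamma-delta T cells had 6 or more, against none of 88 and 83 cells in WT.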

How the results depend on the processing

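The main count of 19 lower values was 11 with cells thinned to 2500 UMIs, 29 with no filter on low values, 8 with a fold of 2 and, added after the data were seen, 29 with cells of more than 1 gate kept; under the other 6 alternatives it was between 16 and 18. The 1 higher value became 0 with 1 marker more per gate, the stricter filter (1000 genes, 2000 UMIs and under 5% mitochondrial), thinning or a fold of 2, 4 with no low filter, 7 with cells of more than 1 gate kept and 3 with the choroid plexus level subtracted, the second added alternative. By member, the cell types with a lower value became 4 for Ly6a with 1 marker more and 2 at a fold of 2. For Ly6e they became 1 with median ratio scaling, 1 with thinning and 0 at a fold of 2. For Ly6i they became 2 with thinning, 8 with no low filter, 3 at a fold of 2 and 9 with cells of more than 1 gate kept. The count for Ly6c2 stayed within 1.5 times its main value, from 3 to 6. Several settings change which values have enough UMIs to be measured, and the share of all genes lower was not computed under them. These counts can therefore move because other values are measured. In microglia without MHC class II UMIs the 4 lower members became 1 with thinning, 2 with cells of more than 1 gate kept and 1 with the choroid plexus level subtracted. In this count and the next, a member with too few UMIs, or below the subtracted level, is counted as not lower. In those with 3 or more UMIs the 2 lower members became 1 with 1 marker more, 1 with thinning, 0 at a fold of 2, 1 with cells of more than 1 gate kept and 1 with the choroid plexus level subtracted. With cells of more than 1 gate kept, 2 called ratios reversed: Ly6c2 in microglia without MHC class II to 0.18 and Ly6d in those with it to -0.46. The cause was not tested. Of the 20 called values, 12 stayed past 1.5-fold in the same direction under every alternative that gave a value, the fold of 2 aside. By the geometric mean of both libraries, the highest cell type of all 7 members was the same under the 6 alternatives that could move it. Single libraries can differ from that mean. Ly6c1, barely counted, was higher in pDC than in T cells in WT (3.77 and 3.46 CPM). With cells of more than 1 gate kept, Ly6c2 in Stat4fl/flCD11cCre was higher in classical monocytes than in pDC (1807 and 1753 CPM).

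Shares of cells with a UMI depended on depth. Ly6g in neutrophils was 49.3% and 45.8% at 2500 UMIs, 21.6% and 28.4% at 1500, and 27.0% and 37.4% unthinned. Thinning leaves out shallow neutrophils and also lowers the depth of the cells kept, and the parts of these were not separated. Ly6i in Nos2-positive macrophages was 80.4% and 76.2%, then 69.4% and 69.2% at 1500 and 90.9% and 91.8% unthinned. Unthinned, Ly6c2 in Stat4fl/flCD11cCre pDC was 94.8% against 84.4%, and Ly6e was 100% in pDC of both libraries. The 10% highest doublet scores held 31.1% and 36.6% of cells of more than 1 gate and 1.79% and 1.18% of those in 1 gate. No paired analysis was possible because each genotype has 1 library.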
